A study of Schizosaccharomyces pombe with 12 samples.

Results

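Fission yeast (Schizosaccharomyces pombe) non-coding RNAs carry serial numbers in their systematic names, and 1444 of them are numbered below 2000. They were chosen by name alone, as the genes whose identifier starts with SPNCRNA and ends in a number under 2000, out of 12683 genes in the count table. The table also lists 5768 non-coding RNAs numbered 2000 and above and 5113 coding genes. PolyA RNA was sequenced from cells grown in YE5S medium at 30 °C. The 6 groups, with 2 libraries each, were the ubp8 mutant after 30 min in 1 mM hydrogen peroxide, the untreated ubp8 mutant, the treated ubp16 mutant, the untreated ubp16 mutant, treated wild type (WT) and untreated WT. The submitters describe both mutants as deletions, and give no further allele, background marker or strain number in the sources used here. Whether the 2 libraries in each group are from different cultures is not stated, and the p-values therefore measure the spread between libraries alone, which may be technical.

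Many of these RNAs are transcribed by RNA polymerase II from the strand opposite a coding gene, or away from a coding gene out of a shared promoter region, and most are kept at low levels by nuclear RNA decay and by chromatin that limits cryptic transcription. A smaller number have known tasks: the RNA of telomerase, the RNAs of RNase P, RNase MRP and the signal recognition particle, and long RNAs that repress a downstream gene as they are transcribed across its promoter. Ubp8 is the ubiquitin protease of the SAGA coactivator complex and removes ubiquitin from histone H2B, and Ubp16 is another ubiquitin-specific protease. Oxidative stress in this yeast acts through the kinase Sty1 and the transcription factors Atf1 and Pap1.

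The starts of 4 members that responded strongly to peroxide in WT are shown because they hold a short motif of a stress transcription factor. Each window runs from 250 bases before to 50 bases after the annotated start, 5′ to 3′ on the member's strand, from RefSeq ASM294v3. The authors' build is not named in those sources, and positions are those of this reference. The capitals mark TGACGT, the core of the Atf1-Pcr1 site, in the first 3 windows and a match to GAANNTTC, the core of the heat shock element, in the last.
SPNCRNA.570 (II:1297474-1297773, minus strand): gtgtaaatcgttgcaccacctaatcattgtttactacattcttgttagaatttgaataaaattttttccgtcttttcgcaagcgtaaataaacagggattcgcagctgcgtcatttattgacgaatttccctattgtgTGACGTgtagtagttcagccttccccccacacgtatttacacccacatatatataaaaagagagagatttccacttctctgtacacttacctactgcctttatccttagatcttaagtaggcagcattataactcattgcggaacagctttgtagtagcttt
SPNCRNA.603 (I:82296-82595, minus strand): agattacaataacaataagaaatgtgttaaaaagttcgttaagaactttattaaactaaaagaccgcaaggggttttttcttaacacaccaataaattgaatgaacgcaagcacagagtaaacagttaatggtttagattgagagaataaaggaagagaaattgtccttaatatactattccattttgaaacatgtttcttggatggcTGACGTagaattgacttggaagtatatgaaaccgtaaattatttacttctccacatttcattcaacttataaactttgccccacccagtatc
nc-pho1 (II:4446109-4446408, plus strand): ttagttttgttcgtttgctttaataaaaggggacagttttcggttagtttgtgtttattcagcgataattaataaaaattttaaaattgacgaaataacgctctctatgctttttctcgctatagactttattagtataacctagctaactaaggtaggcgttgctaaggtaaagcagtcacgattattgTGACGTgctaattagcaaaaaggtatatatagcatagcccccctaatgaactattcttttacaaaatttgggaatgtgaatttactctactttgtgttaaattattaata
SPNCRNA.811 (I:2297570-2297869, plus strand): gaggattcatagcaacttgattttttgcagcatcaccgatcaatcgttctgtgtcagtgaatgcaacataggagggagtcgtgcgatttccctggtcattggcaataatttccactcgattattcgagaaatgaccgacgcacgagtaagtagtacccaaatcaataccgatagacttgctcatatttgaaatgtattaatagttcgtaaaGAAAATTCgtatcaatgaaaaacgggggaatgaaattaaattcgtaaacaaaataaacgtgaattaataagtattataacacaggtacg
TGACGT, searched on both strands, occurred in 110 of the 1442 member windows (7.63%), in 5.49% of 12601 windows of all genes and in 5.91% of 5112 coding gene windows. Among members called higher after peroxide it occurred in 17.0% of 206 windows in ubp8, 13.8% of 268 in ubp16 and 11.3% of 372 in WT. Among members called lower it occurred in 6.28%, 5.96% and 6.8% of windows in ubp8, ubp16 and WT, and among those not called in 6.08%, 6.49% and 6.48%. GAANNTTC, also searched on both strands, occurred in 11.58% of member windows and 11.9% of all windows. A match is a description of the letters and says nothing of whether a factor binds there.

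The 12 libraries held between 9904056 and 14054746 counts, of which members took between 1.31% and 2.06%. Levels below are counts per 1000000 of the TMM-scaled library size (CPM), and 3 counts in the smallest library came to 0.303 CPM before scaling, a floor that covers counting error only. The ubp8 transcript was at 9.49 and 8.34 CPM in untreated ubp8 libraries, against 33.9 and 34.1 CPM in untreated WT libraries. The ubp16 transcript was at 22.2 and 25 CPM in untreated ubp16 libraries, against 46.7 and 54.3 CPM in untreated WT libraries. Each transcript was lower in the strain named after it and at 0 in no library, and no label gives the extent of either deletion. The ubp16 transcript was also lower than in WT in untreated ubp8, at 31.9 and 32.5 CPM (log2 fold change -0.65, edgeR adjusted p = 0.00334). In treated WT it was at 20.5 and 25.6 CPM, and in treated ubp16 at 9.38 and 13.0 CPM. A low level of this transcript is therefore not a mark of the ubp16 strain alone. A principal component analysis of the tested members parted treated from untreated libraries on its first axis (39.1% of the variance), and on its second (29.7%) the 4 ubp16 libraries lay below 0 and the other 8 above it.

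Of the 1444 members, 1442 matched the reference by identifier. At least 50% of the length lay opposite a coding gene in 619 (42.9%, antisense below), and 307 others (21.3%) started within 500 bases upstream of a coding gene on the other strand (divergent below). The remaining 516 (35.8%) were neither. They were 1049.5 bases long at the median (56 to 5317), and 1437 had 1 exon. In 70 members every library was at 0 counts. In all 1166 members passed the filter on low counts and were tested among 8166 genes, and the other 278 were not, which removes weakly expressed RNAs in preference to strong ones. Per kilobase of exon, tested members had a median level of 4.55 CPM, against 43.5 CPM for tested coding genes and 1.1 CPM for tested non-coding RNAs numbered 2000 and above. The highest level per kilobase, 1180 CPM, was that of prl53, which alone held 14.9% of all member counts. The kit keeps the strand, but no label names the strand setting of the counting, so a member and a gene opposite it may share reads. Where the gene opposite averaged at least 1000 counts, the antisense member had 2.73% of its counts at the median over 184 pairs and 0.0556% at the lowest.

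After peroxide more of the tested members fell than rose in the ubp8 mutant, and more rose than fell in WT. Called at an adjusted p under 0.05 (edgeR) in ubp8 were 207 higher (17.8% of 1166, against 28.0% of all genes tested) and 366 lower (31.4%, against 25.8% of all genes tested), with a median log2 fold change of -0.29 over tested members and -0.06 over all genes tested. With library totals in place of TMM these were 135 higher and 510 lower, around an all-gene median of -0.38, and without untreated ubp8 replicate 2 the members called lower numbered 243. In ubp16 268 members were higher (23.0%, against 25.2%) and 219 lower (18.8%, against 25.2%), with a median of 0.01 over tested members and -0.05 over all. With library totals 196 were higher and 317 lower there, around an all-gene median of -0.30. In WT 373 were higher (32.0%, against 26.2%) and 206 lower (17.7%, against 27.0%), with a median of 0.22 over tested members and -0.04 over all, and with library totals 316 were higher and 257 lower around an all-gene median of -0.23.

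**Figure D1:**
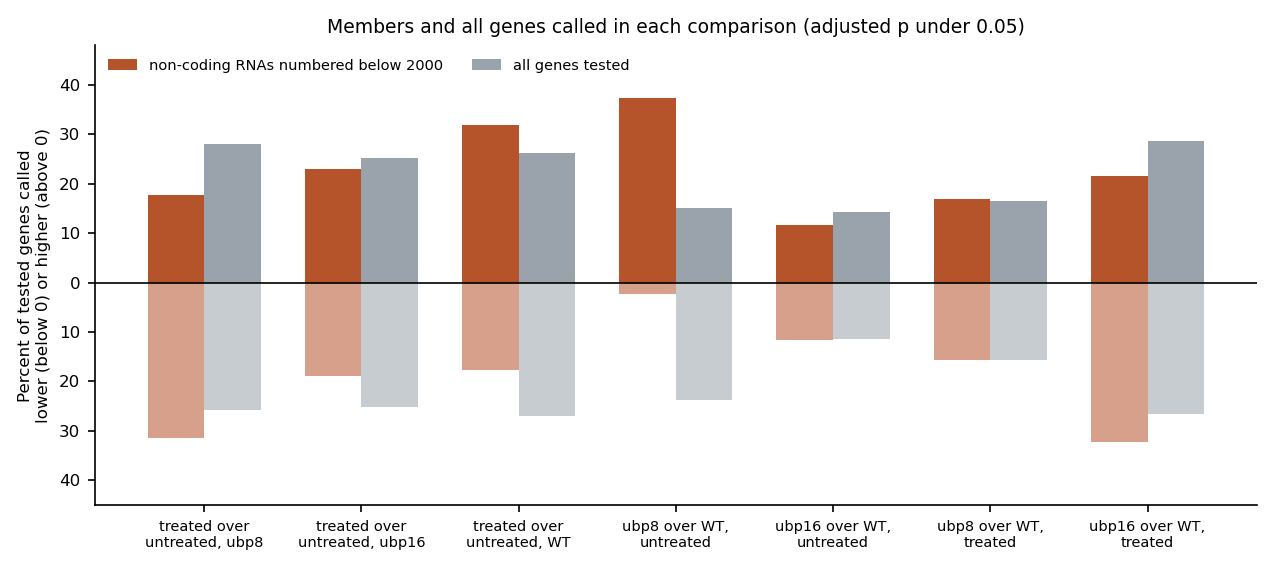
Percent of tested non-coding RNAs numbered below 2000 (orange) and of all genes tested (grey) called higher (upward bars) or lower (downward bars) in 7 comparisons, by edgeR at an adjusted p under 0.05. In untreated ubp8 over WT 37.4% of tested members were higher and 2.32% lower, against 15.1% and 23.8% of all genes tested.

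Shared calls were counted between responses, which have no library in common. Members higher in both ubp8 and WT numbered 174, which is 84.1% of the 207 higher in ubp8 and 46.6% of the 373 higher in WT. Members lower in both numbered 165, which is 45.1% of the ubp8 list and 80.1% of the WT list. Members higher in both ubp16 and WT numbered 173, which is 64.6% of the ubp16 list and 46.4% of the WT list. No overlap between pairs of responses is given over all genes tested, so these are not a trait shown for members alone. All 3 responses held 121 members called higher (10.4%, against 15.1% of all genes tested) and 98 called lower (8.4%, against 13.3%), and 276 were called in none (23.7%, against 22.8%).

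Several of the largest rises in WT started from low levels, some of them near the floor. SPNCRNA.570 (II:1296790-1297523) had 176 and 214 CPM in treated ubp8 and 6.63 and 7.35 CPM in untreated ubp8. It had 117 and 157 CPM in treated ubp16 and 11 and 20.9 CPM in untreated ubp16, and 294 and 259 CPM in treated WT and 4.98 and 3.62 CPM in untreated WT. All 6 treated libraries lay above all 6 untreated ones. The log2 fold changes were 4.80 ± 0.23 (SE, n = 2 libraries in each group, as for all SEs below) in ubp8, 3.14 ± 0.21 in ubp16 and 6.01 ± 0.26 in WT (edgeR adjusted p of 1.02e-10, 4.49e-09 and 3.27e-11). These SEs were worked back from the edgeR fit over all 12 libraries and are approximate. The rise was smaller than in WT in both mutants (-1.21 ± 0.37, adjusted p = 0.0348, for ubp8 and -2.88 ± 0.35, adjusted p = 1.59e-05, for ubp16). SPNCRNA.570 covers 79.0% of SPBC30B4.09 on its own strand, and that coding gene was listed at 0 in every library.

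SPNCRNA.863 (I:2939138-2940765) is one of the more abundant members that rose. Treated ubp8 libraries reached 308 and 500 CPM, against 71.8 and 60.5 CPM untreated (2.61 ± 0.22). Treated ubp16 libraries reached 157 and 163 CPM, against 34.1 and 19.1 CPM untreated (2.57 ± 0.23). Treated WT libraries reached 920 and 754 CPM, against 43.2 and 40.3 CPM untreated (4.33 ± 0.24). Treated libraries were lowest in ubp16, higher in ubp8 and highest in WT, with no overlap, and both differences from the WT response were called (-1.72 ± 0.30 for ubp8 and -1.76 ± 0.31 for ubp16).

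SPNCRNA.1611 (II:3529599-3530978) lies for 45.1% of its length opposite hhf3, which encodes histone H4. In ubp8 the levels were 34.5 and 46.2 CPM treated against 1.5 and 1.61 CPM untreated (4.69 ± 0.32), and in ubp16 30.6 and 43.6 CPM treated against 4.25 and 7.86 CPM untreated (2.65 ± 0.27). In WT they were 81.9 and 75.8 CPM treated and 1.56 and 0.353 CPM untreated (6.39 ± 0.36). The untreated ubp16 libraries stood above the other 4 untreated ones, and the ubp16 response was smaller than that of WT by 3.74 ± 0.51 on the log2 scale (adjusted p = 5.29e-05). The gene hhf3 itself rose by 0.56 in ubp16 and by 0.99 in WT. Histone genes have near-identical copies, so their counts are uncertain.

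Some members lie next to genes that peroxide raised. SPNCRNA.811 lies for 12.9% of its length opposite the Hsp70 gene ssa1. In treated ubp8 it had 9.53 and 8.96 CPM, against 0.845 and 0.803 CPM untreated, and in treated ubp16 3.40 and 2.50 CPM, against 0.142 and 0.0971 CPM untreated. In treated WT it had 19.2 and 17.0 CPM, against 0.195 and 0.0883 CPM untreated, which is 354 against 3 counts and a ratio of 130 with a 95% counting interval of 44.0 to 631. Treated libraries did not overlap between the strains, and ssa1 averaged 3950 CPM in treated ubp8, 3420 CPM in treated ubp16 and 5530 CPM in treated WT. SPNCRNA.828, opposite SPAC32A11.02c over 52.8% of its length, rose by 3.91 ± 0.29 in ubp8, 1.27 ± 0.28 in ubp16 and 4.64 ± 0.33 in WT, and that coding gene rose by 5.51, 2.73 and 4.71. SPNCRNA.1327 lies for 24.8% of its length opposite ntp1, the neutral trehalase gene. It had 3.81 and 6.68 CPM in treated ubp8 against 3.51 and 6.43 CPM untreated (0.06 ± 0.36, adjusted p = 0.908), and 30.1 and 17.5 CPM in treated WT against 1.95 and 1.41 CPM untreated (3.82 ± 0.40), although ntp1 rose by 3.16 in ubp8 and 3.52 in WT.

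SPNCRNA.540 had 6.01 and 8.96 CPM in treated ubp8, against 0.13 and 0.247 CPM untreated. In treated ubp16 it had 3.13 and 2.80 CPM, against 0.142 CPM and 0 untreated. In treated WT it had 27.3 and 19.7 CPM and in untreated WT no count, so that it was at least 168-fold higher after treatment, taking 3 counts over the untreated group. Treated libraries did not overlap between strains. SPNCRNA.540 holds the whole of SPBC3E7.17, a coding gene listed at 0 in every library. SPNCRNA.603, whose nearest coding gene is the hexose transporter gene ght3, 591 bases away on the other strand, had 10.5 and 7.30 CPM in treated WT and 3 counts in untreated WT, a ratio of 63.7 (21.4 to 312).

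Some members rose in WT and were not called in a mutant. SPNCRNA.87 (I:3177931-3178309) had 6.53 and 8.41 CPM in treated ubp8, against 7.74 and 9.45 CPM untreated, and 5.61 and 7.29 CPM in treated ubp16, against 6.02 and 7.38 CPM untreated. In WT it had 74.0 and 72.7 CPM treated and 10.2 and 4.24 CPM untreated (3.36 ± 0.26, adjusted p = 1.59e-08). Of the 12 libraries, the 2 treated WT ones stood above all others, and the difference from the WT response was -3.58 ± 0.38 in ubp8 and -3.41 ± 0.40 in ubp16 (adjusted p of 4.18e-05 and 1.1e-05). SPNCRNA.901, which shares 48.4% of its length with the small nucleolar RNA gene snR91, had between 2.33 and 3.46 CPM in all 8 mutant libraries, and 13.3 and 13.4 CPM in treated WT against 4.39 and 4.86 CPM in untreated WT. Small nucleolar RNA genes as a class took between 0.0316% and 0.0616% of counts in the mutant libraries, and 0.189% and 0.192% in treated WT against 0.0446% and 0.0433% in untreated WT. Their part in the value of SPNCRNA.901 was not tested. SPNCRNA.1165, 430 bases upstream of the flocculin gene gsf2 on the same strand, rose by 3.23 ± 0.32 in ubp8 and 4.91 ± 0.34 in WT, and had 3.86 and 5.0 CPM in treated ubp16 against 2.41 and 4.66 CPM untreated (0.36 ± 0.33, adjusted p = 0.394). The gene gsf2 was called in neither mutant response and fell in WT by 0.71.

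SPNCRNA.1673 (II:4129491-4131375) changed in opposite directions. It fell to 4.40 and 4.94 CPM in treated ubp8, against 6.96 and 12.6 CPM untreated (-1.07 ± 0.30), and to 0.552 and 0.30 CPM in treated ubp16, against 2.55 and 2.43 CPM untreated (-2.51 ± 0.58). It rose to 36.9 and 25.9 CPM in treated WT, against 5.66 and 9.27 CPM untreated (2.06 ± 0.29). SPNCRNA.926 did the same, by -1.41 ± 0.27 in ubp8, -1.73 ± 0.41 in ubp16 and 1.25 ± 0.25 in WT. It starts 24 bases from zpr1 on the other strand, and zpr1, which encodes a zinc finger protein, averaged 91.3 CPM in treated and 301 CPM in untreated ubp16, and 908 CPM in treated and 437 CPM in untreated WT. In all 18 members were lower in ubp8 and higher in WT (1.54%, against 0.331% of all genes tested), and 22 were lower in ubp16 and higher in WT (1.89%, against 0.955%).

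**Figure D2:**
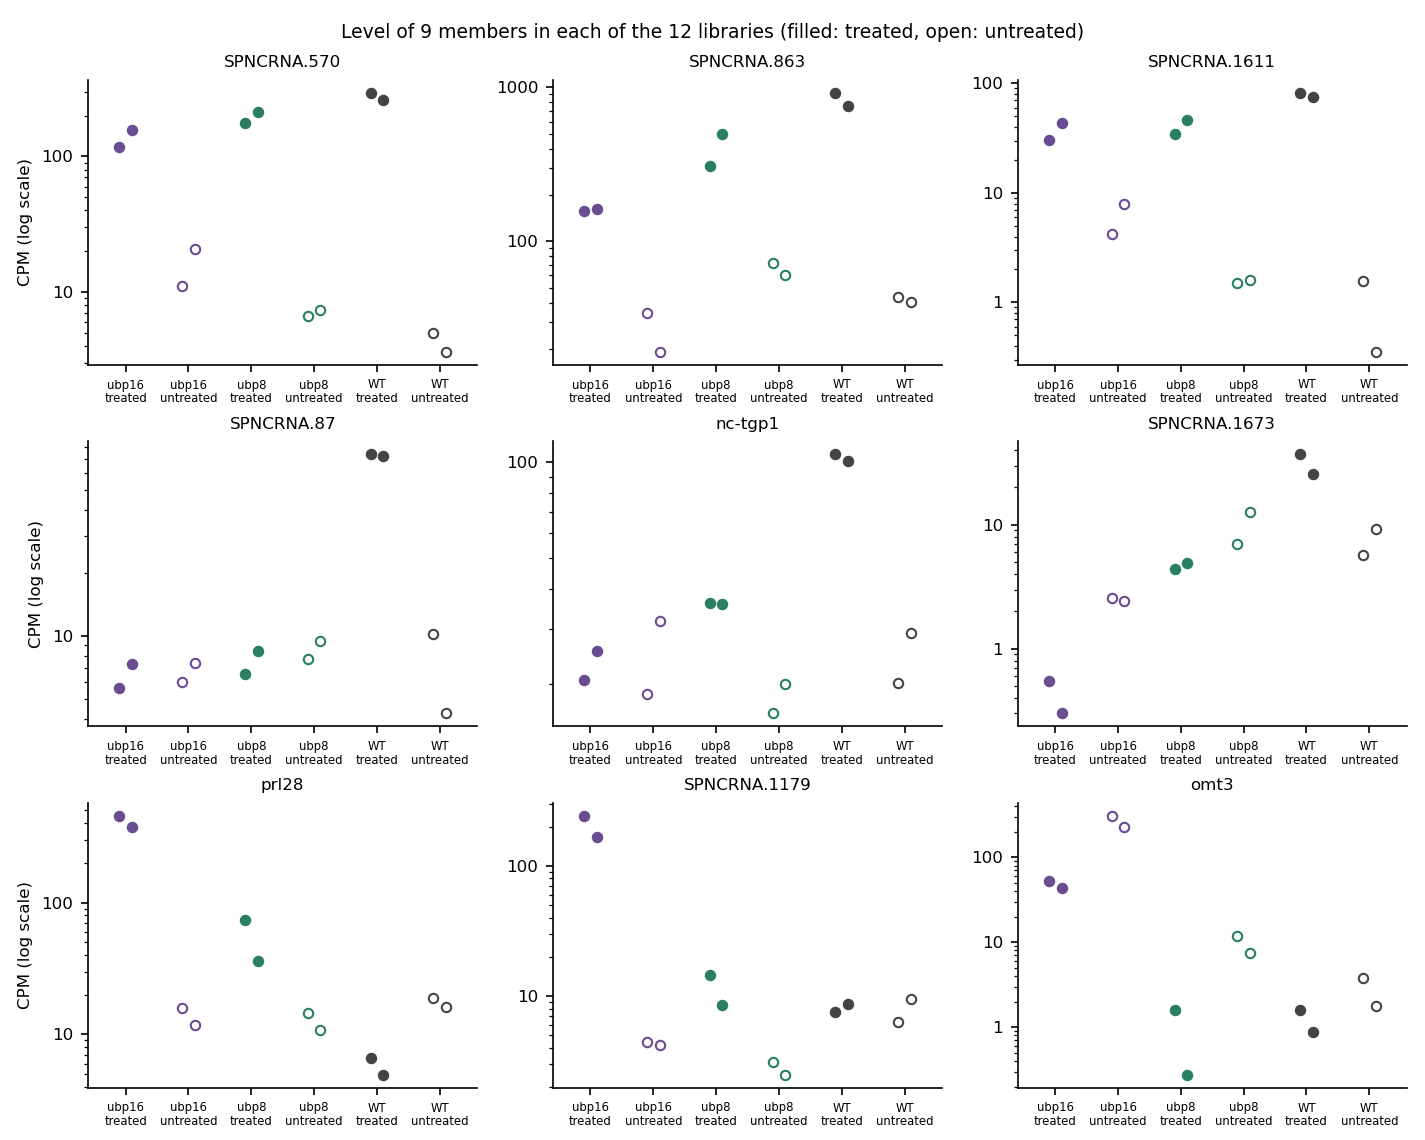
Level (CPM, log axis) of 9 members in each of the 12 libraries, with treated libraries filled and untreated libraries open, and the strains ubp16, ubp8 and WT from left to right. SPNCRNA.87 is high in the 2 treated WT libraries alone (74.0 and 72.7 CPM), and prl28 and SPNCRNA.1179 in the 2 treated ubp16 libraries (454 and 375, and 242 and 166 CPM).

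The opposite order was seen in prl28 (I:5441748-5442341), one of the polyadenylated RNAs without a long open reading frame for which the prl symbols stand. It had 454 and 375 CPM in treated ubp16 and 15.9 and 11.7 CPM in untreated ubp16 (4.89 ± 0.26). In ubp8 the levels were 73.4 and 35.9 CPM treated against 14.5 and 10.9 CPM untreated (2.12 ± 0.25), and in WT 6.63 and 4.93 CPM treated against 18.8 and 16.1 CPM untreated (-1.59 ± 0.34). It rose in both mutants and fell in WT, and both differences from the WT response were called (3.71 ± 0.42 and 6.49 ± 0.42, adjusted p of 9.22e-05 and 1.66e-08). prl28 shares a strand and 48% of its length with SPAC29B12.14c, which moved alike: 725 CPM in treated and 80.8 CPM in untreated ubp16, 160 and 59.1 CPM in ubp8, and 40.2 and 80.0 CPM in WT. Reads in the shared bases cannot be told apart.

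SPNCRNA.1179 (III:1204934-1206655) lies wholly opposite atd3, an aldehyde dehydrogenase gene. It had 242 and 166 CPM in treated ubp16, against 4.39 and 4.18 CPM untreated (5.57 ± 0.25, adjusted p = 5.75e-11). In ubp8 it had 14.6 and 8.51 CPM treated, against 3.12 and 2.47 CPM untreated (2.07 ± 0.29), and in WT 7.58 and 8.68 CPM treated, against 6.35 and 9.54 CPM untreated (0.03 ± 0.29, adjusted p = 0.947). In ubp16, atd3 fell to 11.8 CPM in treated cells, against 24.5 CPM in untreated cells (-1.05). SPNCRNA.1258 shares 9.67% of its length with tpx1, the peroxiredoxin gene, on the same strand. It had 217 and 160 CPM in treated ubp16, against 8.43 and 12.5 CPM untreated (4.19 ± 0.19). It rose by 2.40 ± 0.18 in ubp8 and 1.59 ± 0.19 in WT. The gene tpx1 rose by 4.22, 2.30 and 1.39 in ubp16, ubp8 and WT. Reads in the 89 shared bases cannot be told apart, and tpx1 held 333456 counts over the 12 libraries. Their part in the values of SPNCRNA.1258 was not tested.

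Among members that fell, prl53 (I:4008054-4009905) had the most counts. It had 1200 and 1240 CPM in treated ubp8, against 2520 and 2810 CPM untreated (-1.13 ± 0.11), and 1920 and 1790 CPM in treated ubp16, against 2950 and 3050 CPM untreated (-0.69 ± 0.11). In WT it had 977 and 1060 CPM treated, against 3170 and 3560 CPM untreated (-1.72 ± 0.11). No treated library reached any untreated one, and the fall was smaller than that of WT in both mutants (0.60 ± 0.15 and 1.03 ± 0.15). prl53 covers 94.3% of SPAC27E2.11c on its own strand, and that coding gene was listed at 0 in every library. SPNCRNA.1069, which starts 196 bases from the cell wall glucanosyltransferase gene gas5, had 3.01 and 1.74 CPM in treated ubp8 against 44.8 and 64.4 CPM untreated (-4.49 ± 0.26), and fell by 4.10 in ubp16 and 2.22 in WT. The gene gas5 fell by 2.80, 2.28 and 2.61. SPNCRNA.1609, divergent from the glucosidase gene exg1, fell by 3.54 in ubp8, 3.47 in ubp16 and 2.20 in WT, while exg1 fell by 3.34 in ubp8, fell by 2.97 in ubp16 and fell by 2.77 in WT. SPNCRNA.1139 had 1 count in each treated ubp16 library, 0.092 and 0.0999 CPM, against 6.66 and 10.1 CPM untreated, which makes it 84.6-fold lower with a counting interval of 23.1 to 704. SPNCRNA.1278 fell to 1.20 and 1.40 CPM in treated ubp16, against 31.1 and 39.4 CPM untreated (-4.75 ± 0.30), by 2.69 in ubp8 and by 1.68 in WT.

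Other members fell less in ubp16 than in WT. SPNCRNA.1153 had 14.8 and 12.2 CPM in treated ubp16 against 16.2 and 15.5 CPM untreated (-0.23 ± 0.24, adjusted p = 0.448), and 2.84 and 1.68 CPM in treated WT against 20.2 and 12.7 CPM untreated (-2.86 ± 0.31). SPNCRNA.1471, opposite the F-box protein gene pof9 over 68.1% of its length, rose in ubp16 by 0.85 ± 0.14 and fell in ubp8 by 0.47 ± 0.14 and in WT by 2.11 ± 0.15. SPNCRNA.949, SPNCRNA.1208 and SPNCRNA.1617 fell by between 0.70 and 1.23 in ubp16 and by between 2.52 and 2.90 in WT. In all 5 the difference between the ubp16 and WT responses was called.

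**Figure D3:**
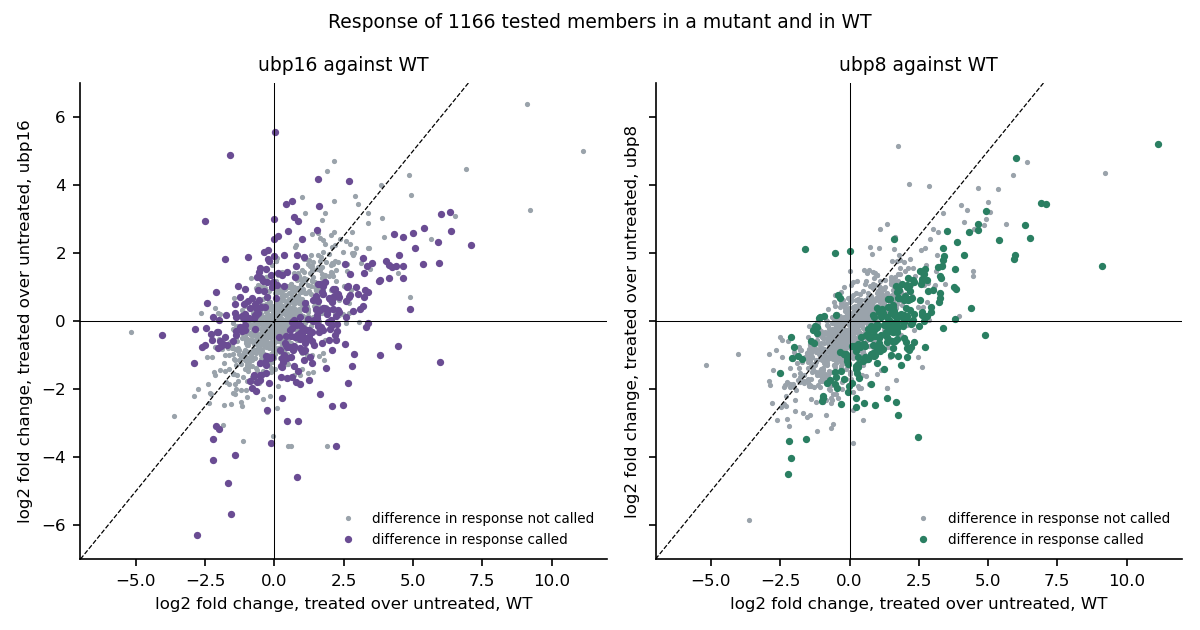
Log2 fold change after peroxide in ubp16 (left) and ubp8 (right) against that in WT, with 1 point for each of the 1166 tested members and a dashed line of equal response. Coloured points are members whose response differed from that of WT at an adjusted p under 0.05, 305 in ubp16 (27.4% of all genes tested differed) and 247 in ubp8 (16.8%). The point farthest right is SPNCRNA.540, which had no count in untreated WT, so that its place depends on the prior count of the fit.

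The difference between responses was tested as an interaction. The ubp8 response was below that of WT in 225 tested members (19.3%, against 6.34% of all genes tested) and above it in 22 (1.89%, against 10.5%), with a median difference of -0.50 over tested members and 0.05 over all. The count of 225 depends on single libraries: it was 97 without untreated ubp8 replicate 2, 104 without treated WT replicate 1, 111 without treated ubp8 replicate 1 and 145 without untreated WT replicate 2. The count of 22 fell to 7 without treated WT replicate 1, 11 without treated WT replicate 2, 9 without untreated WT replicate 2, 6 without treated ubp8 replicate 1 and 11 without untreated ubp8 replicate 2. The ubp16 response was below that of WT in 203 members (17.4%, against 14.4%) and above it in 102 (8.75%, against 13.0%), with a median difference of -0.27. SPNCRNA.1688, opposite SPBC1539.02, had 2.79 and 4.94 CPM in treated ubp8 against 5.66 and 7.29 CPM untreated, and 16.2 and 10.4 CPM in treated WT against 2.05 and 1.94 CPM untreated, a difference between the ubp8 and WT responses of -3.49 ± 0.49.

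In untreated cells, members called in the ubp8 mutant were mostly higher than in WT. Higher than in WT were 436 of 1166 (37.4%, against 15.1% of all genes tested) and lower were 27 (2.32%, against 23.8%), with a median of 0.61 over tested members, -0.01 over all genes tested and -0.21 over tested coding genes. With library totals 601 were higher and 6 lower, around an all-gene median of 0.28. Without untreated ubp8 replicate 2 the members called higher numbered 196, and those lower 11. Without untreated WT replicate 2 they numbered 248 and 9. Non-coding RNAs numbered 2000 and above were higher in 23.5% and lower in 0.458%, with a median of 0.73, and coding genes in 6.46% and 38.4%.

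The rise in untreated ubp8 was spread over arrangements and levels. Divergent members were higher in 119 of 240 (49.6%), antisense members in 190 of 551 (34.5%) and other members in 127 of 373 (34.0%), with medians of 0.79, 0.55 and 0.51. Among tested genes with mean levels between 2.38 and 12.6 CPM, the range from the lower to the upper quartile of members, chosen after the values were seen, 43.8% of 582 members and 24.6% of 252 coding genes were higher, and 1.2% and 2.38% were lower. Members took 1.81% and 2.06% of counts in untreated ubp8, against 1.40% and 1.32% in untreated WT, and non-coding RNAs numbered 2000 and above 0.681% and 0.744%, against 0.385% and 0.334%. Coding genes took 97.4% and 97.0%, against 98.1% and 98.2%. Ribosomal RNA genes took 0.0017% and 0.00187% of counts in untreated ubp8, against 0.00295% and 0.00359% in untreated WT. How reads of repeated genes were counted is not given, so these shares are an uncertain sign of how well polyA selection worked. In these bulk samples a change in the number of cells that express an RNA and a change in RNA per cell cannot be told apart.

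**Figure D4:**
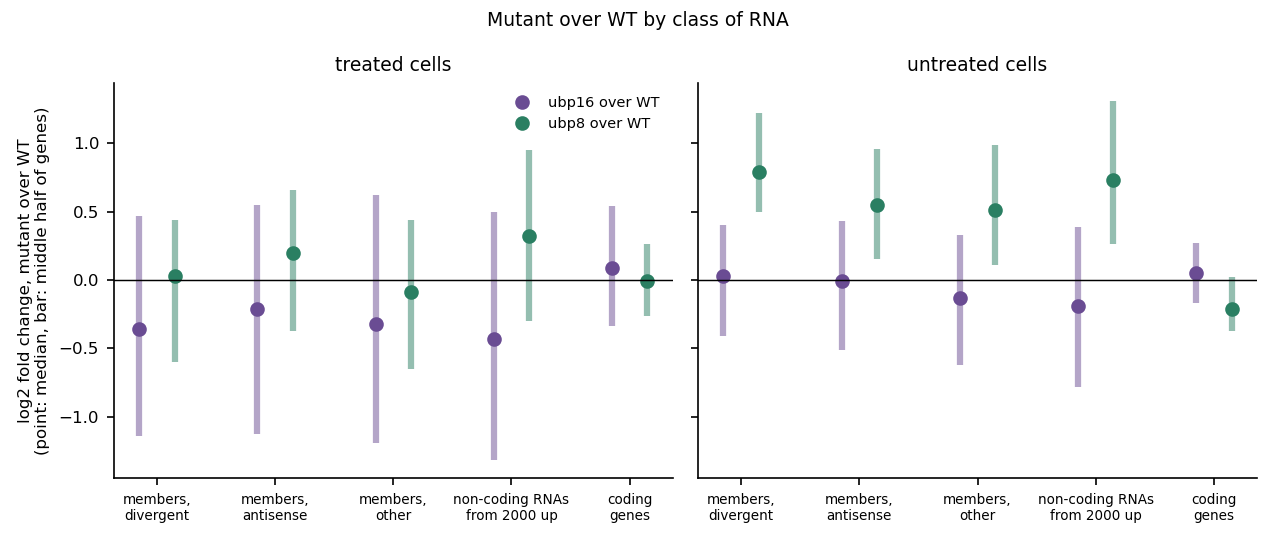
Log2 fold change of ubp16 (purple) and ubp8 (green) over WT in treated cells (left) and untreated cells (right), by class of RNA: points are medians over tested genes and bars run from the lower to the upper quartile. In untreated ubp8 the medians were 0.79, 0.55 and 0.51 for divergent, antisense and other members, against -0.21 for coding genes.

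SPNCRNA.1301 (II:50110-52193), opposite the coding gene grt1 over 47.0% of its length, had 29.6 and 25.1 CPM in untreated ubp8, against 3.81 and 3.62 CPM in untreated WT (2.88 ± 0.24, adjusted p = 2.4e-06), while untreated ubp16 had 0.637 and 0.971 CPM (-2.23 ± 0.37 against WT). The same order held in grt1, at 13.3 CPM in ubp8, 0.371 CPM in ubp16 and 3.55 CPM in WT. SPNCRNA.1294 (III:2388207-2389852) lies for 88.8% of its length opposite spx2. It had 10.1 and 9.08 CPM in untreated ubp8, against 1.66 and 1.68 CPM in WT (2.52 ± 0.24), and spx2 was not called (0.11, adjusted p = 0.601). SPNCRNA.1171, opposite the ubiquitin-conjugating enzyme gene ubc11, had 2.47 and 4.39 CPM in untreated ubp8 and 4.04 and 3.40 CPM in untreated ubp16, against 0.391 and 0.441 CPM in WT (3.01 ± 0.49 and 3.13 ± 0.49). SPNCRNA.1093 had 5.92 and 5.07 CPM in untreated ubp8 and 3.04 and 5.24 CPM in untreated ubp16, against 0.879 and 1.32 CPM in WT. SPNCRNA.1253, opposite imt2, went the other way, with 16.4 and 17.9 CPM in untreated ubp8 against 28.4 and 28.5 CPM in WT (-0.73 ± 0.14).

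After peroxide the shift of ubp8 from WT was balanced. Higher in treated ubp8 than in treated WT were 198 tested members (17.0%, against 16.6% of all genes tested) and lower were 183 (15.7%, against 15.7%), with a median of 0.07. With library totals these were 250 and 131, around an all-gene median of 0.19. The count of higher members was 108 without treated WT replicate 2 and 110 without treated ubp8 replicate 1, and that of lower members 117 without treated WT replicate 1 and 115 without treated ubp8 replicate 1. Of the 436 members higher in untreated ubp8, 126 (28.9%) were higher in treated ubp8, which is 63.6% of those higher there, and 41 were lower. No such overlap is given over all genes tested.

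In untreated ubp16 as many members were above WT as below it, 137 higher (11.7%, against 14.3% of all genes tested) and 136 lower (11.7%, against 11.3%), with a median of -0.05. With library totals 153 were higher and 95 lower, around an all-gene median of 0.12. Without untreated WT replicate 2 the counts were 87 and 86, and without untreated ubp16 replicate 2 the lower count was 88. One of those above WT was omt3 (I:4516070-4517070), with 307 and 229 CPM in untreated ubp16 and 11.9 and 7.48 CPM in untreated ubp8, against 3.81 and 1.77 CPM in untreated WT (6.61 ± 0.30, adjusted p = 2.57e-10, for ubp16 and 1.81 ± 0.37 for ubp8). After peroxide it had 52.0 and 43.5 CPM in ubp16, against 1.58 and 0.888 CPM in WT (5.28 ± 0.37). The 4 ubp16 libraries stood above the 8 others. The gene 378 bases downstream on its strand, omt2, was not called in untreated ubp16 (0.25, adjusted p = 0.306).

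The RNA meu19 (III:2419051-2419799), whose symbol stands for a transcript upregulated in meiosis, had 36.5 and 32.5 CPM in untreated ubp16, against 1.27 and 2.03 CPM in untreated WT (4.37 ± 0.39). In treated ubp16 it was at 0.736 and 0.60 CPM, so that it fell by 5.67 ± 0.45 on the log2 scale after peroxide, and the treated ubp16 and WT libraries overlapped. Markers of mating type and meiosis were measured beside these RNAs. The 3 P cell markers found summed to between 48 and 56.5 CPM in ubp16, between 25.6 and 36.2 CPM in ubp8 and between 11.6 and 14.4 CPM in WT, with none at 0. Most of that sum in untreated ubp16 was map1, at 40.7 CPM against 4.78 CPM in untreated WT (3.10), while map2 (-1.31, adjusted p = 0.146) and map3 (0.32, adjusted p = 0.353) were not called. The 6 M cell markers, 1 of them at 0 in every library, summed to 231 and 174 CPM in untreated ubp16, against 67.2 and 56.2 CPM in untreated WT, and 4 of 5 tested were called higher. The 10 meiotic markers summed to 71.2 and 72.4 CPM in untreated ubp16, against 61.3 and 46.4 CPM in untreated WT, and 2 were called higher. The part of these cells in the levels of omt3 and meu19 was not tested.

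A pair of neighbouring antisense members moved in opposite directions in ubp16. SPNCRNA.1317 (II:154152-154516) lies wholly opposite the maltase gene mal1. It had 45.3 and 61.9 CPM in untreated ubp16, against 1.76 and 2.21 CPM in untreated WT (4.74 ± 0.25), while mal1 averaged 3.02 CPM in ubp16 and 45.5 CPM in WT (-3.88). SPNCRNA.1319 (II:157362-158316) lies wholly opposite the hexose transporter gene ght4. It had 0.212 and 0.388 CPM in untreated ubp16, against 17.4 and 22.8 CPM in untreated WT (-6.08 ± 0.34), while ght4 averaged 255 CPM in ubp16 and 19.0 CPM in WT (3.74). Neither group overlapped the other in either RNA, and both differences were also called after peroxide (4.0 ± 0.22 and -4.15 ± 0.31).

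**Figure D5:**
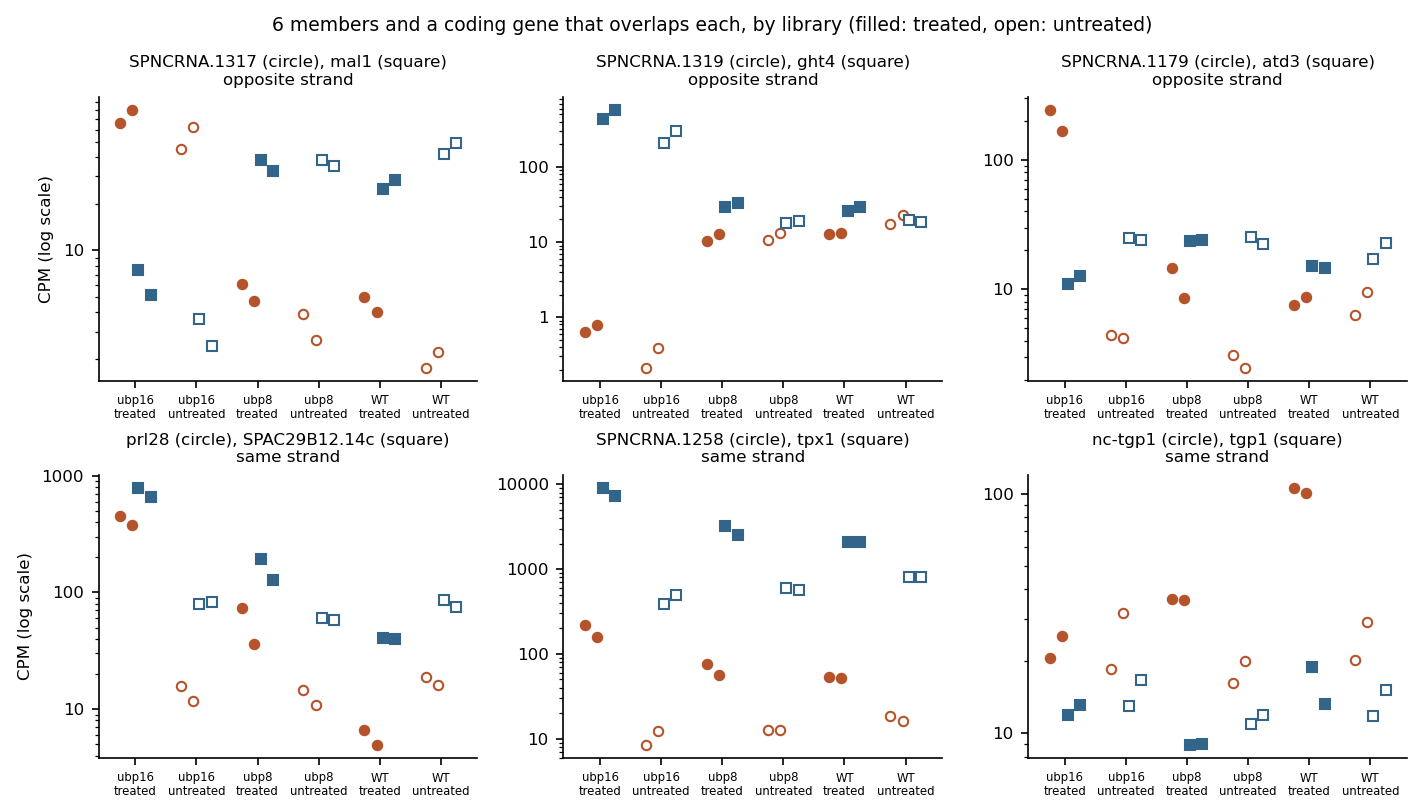
Level (CPM, log axis) in each library of 6 members (circles) and a coding gene that overlaps each (squares), on the opposite strand above and on the same strand below, with treated libraries filled. In ubp16 SPNCRNA.1317 is above and mal1 below the other strains, SPNCRNA.1319 is below and ght4 above, and nc-tgp1 is highest in treated WT (106 and 101 CPM).

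Other members that were low in untreated ubp16 included SPNCRNA.1307, with 3.04 and 3.79 CPM against 30.9 and 26.0 CPM in WT (-3.07 ± 0.21). SPNCRNA.1399 had 0.354 and 0.291 CPM in untreated ubp16 against 3.32 and 2.74 CPM in WT (-3.17 ± 0.40). SPNCRNA.1533, divergent from SPBC25B2.03 and upstream of the mating factor transporter gene mam1, had 3.54 and 3.79 CPM against 21.0 and 24.1 CPM (-2.63 ± 0.15), while mam1 was higher (1.20). In all 3 the ubp16 libraries lay below those of WT. SPNCRNA.1210, opposite SPCC777.03c over its whole length, was high instead, with 19.3 and 23.6 CPM in untreated ubp16 against 1.76 and 1.85 CPM in WT (3.56 ± 0.30).

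In treated cells the ubp16 mutant differed from WT in more tested members than before treatment, with 251 higher (21.5%, against 28.7% of all genes tested) and 376 lower (32.2%, against 26.5%), and a median of -0.27 over tested members against -0.02 over all. Of the 136 members lower in untreated ubp16, 90 (66.2%) were lower here, which is 23.9% of the treated list, and of the 137 higher, 86 (62.8% and 34.3%) were higher here. The same overlaps are not given over all genes tested. SPNCRNA.1673, given above, was lower than in WT (-6.15 ± 0.44) and prl28 higher (6.17 ± 0.30). SPNCRNA.791, opposite the recombination gene rad55, had 38.6 and 35.3 CPM in treated ubp16 and 6.97 and 5.30 CPM in treated ubp8, against 0.947 and 2.07 CPM in treated WT.

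The regulatory RNAs of known task were measured one by one. The transcript nc-tgp1 (II:352335-354234), which represses the glycerophosphodiester transporter gene tgp1 in phosphate-rich medium, had 36.2 and 35.9 CPM in treated ubp8 against 16.2 and 20.0 CPM untreated (0.99 ± 0.20), and 20.7 and 25.5 CPM in treated ubp16 against 18.6 and 31.7 CPM untreated (-0.11 ± 0.21, adjusted p = 0.705). In treated WT it had 106 and 101 CPM, against 20.2 and 29 CPM untreated (2.07 ± 0.20, adjusted p = 1.92e-07). The treated groups did not overlap, with ubp16 lowest and WT highest, and both differences from the WT response were called (-1.08 ± 0.28 for ubp8 and -2.18 ± 0.29 for ubp16). The gene tgp1 averaged between 9.0 and 16.1 CPM over the groups and was called in no response, and was lower in treated ubp8 than in treated WT (-0.84, adjusted p = 0.00615).

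The transcript nc-pho1 (II:4446359-4448918), which represses the acid phosphatase gene pho1, was also highest in treated WT, at lower levels. It had 7.55 and 5.94 CPM in treated ubp8 against 4.03 and 3.46 CPM untreated (0.86 ± 0.30), and 5.24 and 6.5 CPM in treated ubp16 against 4.96 and 4.27 CPM untreated (0.34 ± 0.31, adjusted p = 0.4). In WT it had 18.8 and 13.5 CPM treated against 2.83 and 6.0 CPM untreated (1.86 ± 0.30). The treated WT libraries stood above the treated mutant ones, which overlapped, and the difference from the WT response was called for ubp16 (-1.52 ± 0.43) and not for ubp8 (-1.0 ± 0.43, adjusted p = 0.119). The gene pho1 was listed at 0 in every library. In the reference 91.3% of its exon length lies inside nc-pho1 on the same strand, so its own level cannot be told from these counts. All 8 coding genes whose exons lie to 95% or more inside a member on the same strand were likewise listed at 0, whereas none of 11 members that lie inside a coding gene was, so counts of such pairs are uncertain.

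Of the RNAs tied to sexual differentiation, nam1, which ends 211 bases upstream of byr2, rose by 0.34 ± 0.12 in ubp8 and was not called in ubp16 (-0.03 ± 0.12, adjusted p = 0.867). In WT it had 65.2 and 56.5 CPM treated against 44.8 and 34.3 CPM untreated (0.62 ± 0.12). The RNA rse1, a repressor of the differentiation regulator ste11, fell after peroxide in ubp8, ubp16 and WT by 1.49 ± 0.15, 1.26 ± 0.15 and 1.22 ± 0.16. It had 99.3 and 113 CPM in untreated ubp16 against 73.7 and 59.5 CPM in untreated WT (0.67 ± 0.14). The RNA nam3 had 13.7 and 10.3 CPM in untreated ubp16 and 70.3 and 89.0 CPM in untreated ubp8, against 55.7 and 53.4 CPM in WT (-2.17 ± 0.21 for ubp16 and 0.55 ± 0.18 for ubp8). The antisense RNA adh1AS, opposite the alcohol dehydrogenase gene adh1, fell by 1.09 ± 0.23, 0.69 ± 0.26 and 0.99 ± 0.24 in ubp8, ubp16 and WT, and adh1 fell by 0.57, 0.93 and 0.58. The RNAs tos1, tos2, nam5 and nam6 did not pass the filter on low counts. Of 55 members with a prl symbol 30 were tested, and 10 of these were higher and 2 lower in untreated ubp8 than in WT (33.3% and 6.67%, against 37.4% and 2.32% of tested members and 15.1% and 23.8% of all genes tested).

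The structural RNAs had few calls. Telomerase RNA, ter1, had between 12.3 and 19.2 CPM in all 12 libraries, and its only call was in the ubp8 response (-0.41 ± 0.16, adjusted p = 0.0367). The RNase MRP RNA, mrp1, was called in no response and was above WT in untreated ubp16 (39.4 and 39.9 CPM against 24.3 and 28.8 CPM, 0.58 ± 0.16) and in treated ubp16 (0.51 ± 0.17). The RNase P RNA, rrk1, fell by 0.59 ± 0.16 after peroxide in ubp8 and by 0.61 ± 0.17 in WT, had 46.6 and 37.2 CPM in treated ubp16 against 44.6 and 40.5 CPM untreated, and stood above WT in treated ubp16 (0.94 ± 0.17). The signal recognition particle RNA, srp7, was called in no comparison, at 3.59 to 13.3 CPM. These RNAs are not all polyadenylated, so polyA libraries may hold only a share of them.

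Over pairs of tested members and coding genes, the likeness of fold changes is given by arrangement as a description, since both members of a pair come from the same libraries. Across 239 divergent pairs Pearson's r between member and partner was 0.592 in ubp8, 0.521 in ubp16 and 0.537 in WT. Of the 81 divergent members higher in the WT response 52 partners were higher (64.2%), and of the 35 lower 20 partners were lower (57.1%). Over all tested coding genes 29.7% were higher and 36.5% lower in that response. Across 540 antisense pairs r ran from -0.258 to 0.0799 over the 9 comparisons, and was lowest in untreated ubp16 over WT. There, of 66 members called lower, 33 partners were higher and 5 lower, against 70 and 49 of 401 for members not called. Of 73 members higher there, 13 partners were higher and 16 lower. In the ubp16 response 47.8% of partners of lower members were higher, against 21.7% for members not called. Partners of higher members were lower in 34.2%, as for members not called. The cause was not tested. Across 315 members with a coding gene downstream on the same strand, a class formed after the values were seen, r was between 0.221 and 0.263 in the responses. In untreated ubp8 over WT r was 0.208 over the divergent pairs. Of the 119 divergent members higher there 8 partners were higher (6.72%) and 47 lower (39.5%). These shares were near those for partners of divergent members not called (5.04% and 44.5%) and for all tested coding genes (6.46% and 38.4%). Antisense members had a median of 12.3% of the level of the gene opposite, per kilobase of exon, with 33 of 540 under 1% and 83 at 100% or more.

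The genes that keep non-coding RNAs low were counted as a list of 54, all tested. In untreated ubp8 0 were higher and 33 lower than in WT by edgeR at an adjusted p under 0.05 (median -0.28, against -0.01 over all genes tested, where 15.1% were higher and 23.8% lower). Tested coding genes had a median of -0.21 there, with 6.46% higher and 38.4% lower. At an unadjusted p under 0.05 the counts were 0 and 39, and by DESeq2 with an adjusted p they were 0 and 28. These counts depend on the scaling, since with library totals 4 were higher and 3 lower, with a median of 0.01 against 0.28 over all genes tested. They depend on single libraries too, with 8 lower without untreated WT replicate 2, 12 without untreated ubp8 replicate 2 and 17 or 18 without any 1 of the treated libraries. By subgroup, with TMM, 14 of 23 nuclear exosome and cofactor genes were lower, 13 of 19 chromatin factors, 4 of 6 termination and decay genes and 2 of 6 genes of RNA interference and heterochromatin. In untreated ubp16 5 were higher (9.26%, against 14.3% of all genes tested) and 7 lower (13.0%, against 11.3%). In the ubp8 response 20 were higher (37.0%, against 28.0%) and 12 lower (22.2%, against 25.8%), with a median of 0.14, but with library totals 5 were higher and 25 lower, with a median of -0.18 against -0.38 over all genes tested. In the ubp16 response 11 were higher (20.4%, against 25.2%) and 25 lower (46.3%, against 25.2%), and in the WT response 9 were higher (16.7%, against 26.2%) and 26 lower (48.1%, against 27.0%). Of tested coding genes 38.5% were higher and 26.8% lower in the ubp8 response, 31.1% and 32.7% in ubp16 and 29.7% and 36.5% in WT. In untreated ubp16 over WT 19.1% of coding genes were higher and 13.3% lower. Of 12 genes of stress regulators, which are transcription factors such as atf1 and pap1, the corepressors tup11 and tup12 and the kinases sty1 and wis1, 9 were higher in the ubp8 response (75%, against 28.0% of all genes tested), 8 in the ubp16 response (66.7%, against 25.2%) and 8 in the WT response (66.7%, against 26.2%). The kinase gene wis1 was lower in all 3 responses, with log2 fold changes of -0.44 in ubp8, -0.71 in ubp16 and -0.81 in WT, and tup11 was lower in the WT response (-0.41).

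The share of all counts that members took was compared over libraries. It was lower after peroxide by 0.178 percentage points on average over the strains, which an exact two-sided permutation test within strains did not call (p = 0.13, with 0.00926 the smallest p this design allows). The ubp8 share was above that of WT by 0.293 points (p = 0.167) and the ubp16 share by 0.0742 points (p = 0.333), in exact permutation tests over 36 arrangements that cannot give a p under 0.0556. Without prl53 the treated share was above the untreated one by 0.0248 points (exact permutation p = 0.815).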

How the data were processed

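The values are raw whole-number counts of reads per gene in 12 polyA libraries, 2 in each of 6 groups, deposited by the authors. Per the submitters' processing notes, the tools were STAR, HTSeq, DESeq2, Trimmomatic and FastQC, with no version. Build and strand setting are not given in the sources used here. From these counts, genes were kept with edgeR's filterByExpr (8166 of 12683) and scaled by TMM, and edgeR 4.0.16 in R 4.3.3 was fitted with 1 mean for each group over all 12 libraries. Its quasi-likelihood test gave 7 pairwise comparisons and 2 differences between responses, with Benjamini-Hochberg adjustment over all 8166 genes. DESeq2 1.42.0 and the settings of the closing section were alternatives. The test was checked on simulated data. Members named in the text were up to 5 in each direction and pairwise comparison, those with the largest called change, a mean of at least 50 counts and no overlap between groups, up to 4 in each direction for differences between responses, RNAs of known function and the 3 with the highest CPM. Those named for nested or shared reads are outside that rule and were chosen after their values were seen. The members and lists were chosen with earlier results of these data known. Positions, names and sequences come from RefSeq ASM294v3, matched by identifier. Library totals ran from 9904056 to 14054746 counts, and counting intervals cover counting error only.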

Additional observations from a re-analysis of the deposited data

Results flagged for a closer look

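Of the members whose response differed from that of WT, 13 were picked by the naming rule for that difference, and their 16 differences are given on the log2 scale, mutant response minus WT response. In ubp8 it was 3.71 for prl28, 2.04 for SPNCRNA.1179, 1.64 for SPNCRNA.1471 and 1.27 for SPNCRNA.716, so that their response was above that of WT. It was -3.49 for SPNCRNA.1688, -3.58 for SPNCRNA.87 and -3.76 for SPNCRNA.1327. For SPNCRNA.540 the fitted value was -5.91, which depends on the prior count because untreated WT had no count. In ubp16 it was 6.49 for prl28, 5.54 for SPNCRNA.1179, 2.96 for SPNCRNA.1471 and 2.85 for SPNCRNA.1622. It was -3.74 for SPNCRNA.1611, -4.12 for meu19, -4.55 for SPNCRNA.1165 and -4.57 for SPNCRNA.1673. SPNCRNA.1622 had 17.4 and 6.80 CPM in treated ubp16 against 3.33 and 3.20 CPM untreated, and 2.42 and 1.48 CPM in treated WT against 4.88 and 2.74 CPM untreated. SPNCRNA.716 had 15.5 and 14.9 CPM in treated ubp8 against 25.8 and 25.4 CPM untreated, and 6.95 and 9.37 CPM in treated WT against 25.8 and 40.5 CPM untreated. The cause of these differences was not tested.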

How the results depend on the processing

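Counts of called members moved by over 1.5 times as follows, and the cause was not tested. With library totals 135 were higher in the ubp8 response, 6 lower in untreated ubp8 than in WT and 12 had a ubp8 response above that of WT. With a mean of at least 50 counts, which tests fewer genes, these were 136, 8 and 13, and 121 were lower in treated ubp8 than in WT. With only the libraries of the comparison 17 were lower in untreated ubp8 and 85 lower in untreated ubp16 than in WT. With at least 2-fold, a stricter rule, the ubp8 response had 123 higher and 220 lower, the ubp16 response 132 lower and the WT response 123 lower. Under that rule untreated ubp8 had 235 higher and 6 lower than WT, untreated ubp16 89 and 80, treated ubp8 96 and 114 and treated ubp16 154 higher, and 13 had a ubp8 response above that of WT. The list of genes that keep non-coding RNAs low was put through the same settings after the data had been seen. In untreated ubp8 over WT it then had 4 higher and 3 lower with library totals, 1 and 10 with a mean of at least 50 counts, 15 lower with no filter and 15 lower with only the libraries of the comparison.

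Leaving out each library in turn gave 140 to 167 higher and 243 to 337 lower in the ubp8 response, 213 to 242 and 157 to 198 in ubp16, and 294 to 355 and 147 to 174 in WT. It gave 196 to 368 higher and 9 to 21 lower in untreated ubp8 over WT, 87 to 114 and 86 to 111 in untreated ubp16, 108 to 143 and 115 to 165 in treated ubp8, and 186 to 221 and 301 to 360 in treated ubp16. The ubp8 response was above that of WT in 6 to 24 and below in 97 to 236, and the ubp16 response above in 70 to 100 and below in 145 to 201. In untreated ubp8 over WT the list of genes that keep non-coding RNAs low had 8 to 35 lower, and 0 higher throughout. The ranges of member counts cover only the libraries of the groups compared, whereas the range for the list covers leaving out any of the 12 libraries. A lone library is then assumed to vary like the other groups. The share differences ran from -0.22 to -0.135 points for treatment, 0.229 to 0.357 for ubp8 and 0.0252 to 0.123 for ubp16. As a sum of CPM the share difference was 0.104 points for treated over untreated (exact permutation p = 0.176) and -0.0022 for ubp16 over WT (exact permutation p = 1.0), both opposite in sign to the share of raw counts. For ubp8 over WT that sum gave 0.0346 points (exact permutation p = 0.778), against 0.293 points with raw counts. Without prl53 the treated over untreated difference was 0.0248 points (exact permutation p = 0.815).

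No label says what a replicate number shares, and with 2 numbers the libraries were not taken as paired. The deviations of same-numbered libraries had correlations of -0.0886 to 0.191 over all pairs of groups, and of 0.18, 0.144 and 0.112 between treated and untreated libraries of ubp8, ubp16 and WT. With the replicate number as a block, members higher and lower were 211 and 381 in the ubp8 response, 274 and 232 in ubp16, 384 and 222 in WT and 465 and 38 in untreated ubp8 over WT. Of 361 called values of the 60 named members, 38 lost the call in an alternative other than leaving out a library (23 with library totals, 15 with DESeq2), 95 lost it on leaving out a library and 0 changed sign in any alternative run. The 278 members not tested are beyond what this depth can compare.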

Other observations

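SPNCRNA.133, which lies wholly inside fhn1 on the same strand, had 777 and 850 CPM in treated ubp16 against 340 and 387 CPM untreated (1.16 ± 0.16), and 451 and 437 CPM in treated WT against 108 and 144 CPM untreated (1.82 ± 0.16). Its reads cannot be told from those of fhn1.

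SPNCRNA.1304, which lies for 18.3% of its length opposite cmt2, had 3.38 and 4.26 CPM in untreated ubp8 against 0.391 and 0.53 CPM in untreated WT (3.02 ± 0.47), and rose after peroxide by 2.72 ± 0.28 in ubp8, 3.45 ± 0.35 in ubp16 and 3.02 ± 0.49 in WT. SPNCRNA.1661, opposite the splicing factor gene cwf10 over 99.1% of its length, had 11.4 and 13.2 CPM in treated ubp8 against 1.47 and 4.24 CPM in treated WT (2.08 ± 0.37). SPNCRNA.1137, which overlaps ubp16 on the other strand, was higher than in WT in both untreated mutants, by 1.48 in ubp8 and 1.29 in ubp16.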
